A study of Mus musculus with 16 samples.

Results

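The cell cycle and DNA replication genes are a set of 54 genes that license origins, copy DNA, drive the cyclin-dependent kinases (CDKs) or build the mitotic apparatus. Their peaks were taken from both deposited lists of ATAC-seq peaks that differed in accessibility between non-NE and NE small cell lung cancer (SCLC) cells, and a peak was given to a gene when that gene had the protein-coding start site nearest to the peak centre. Of 80367 listed peaks, 176 belonged to these genes, and 41 of the 54 genes (75.9%, Wilson 95% interval 63.1 to 85.4) had at least 1, beside 66.5% of all protein-coding genes, a share inside that interval. ATAC-seq marks open chromatin by the places where a transposase can insert. A peak is called opened here when the authors listed it as more accessible in Hes1-GFP positive cells, and closed when they listed it as less accessible there. Tumors came from TKO;Hes1GFP/+ mice, in which Rb, p53 and p130 were deleted by Adeno-CMV-Cre given into the trachea of young adult animals of both sexes, and were collected months later. Hes1-GFP positive cells, the non-NE cells with active Notch signaling, were compared with Hes1-GFP negative cells, the neuroendocrine (NE) cells of the same tumors, after leukocytes, endothelium and red cells had been gated out and CD24 had been used as a positive marker. The labels give 4 pairs of populations from 3 mice, 1 pair being a technical replicate, and 16 sequencing runs over 2 lanes. Tumors of a mouse were pooled before sorting, so a library is an average over tumors. Both groups lack Rb, p53 and p130, and Cre under the CMV promoter was not restricted to a cell type.

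In the textbook account of the cell cycle, cyclin D with CDK4 or CDK6 and then cyclin E with CDK2 phosphorylate the Rb family, which releases E2F factors from repression. E2F1 to E2F3 activate replication genes, while E2F7 and E2F8 repress them. Genes used later, in G2 and mitosis, carry a cell cycle homology region (CHR) and CCAAT boxes, which the DREAM complex, B-Myb, FOXM1 and NF-Y read. Rb and p130 belong to the Rb family, which keeps E2F factors repressed, and both are deleted in NE and non-NE cells alike. CDK inhibitors of the Cip/Kip family, such as p27 and p57, and of the INK4 family, such as p15, hold the kinases back.

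The sequences of 5 opened promoters are shown first, because each holds a CHR string, a CCAAT box or both, whose shares among the member promoters are given further on. Each run is the 120 bases just upstream of the start site, read 5′ to 3′ on the strand of the gene (mm10), with E2F strings, CHR strings and CCAAT boxes in capitals on either strand.
Top2a (chr11:99024190-99024309, minus strand): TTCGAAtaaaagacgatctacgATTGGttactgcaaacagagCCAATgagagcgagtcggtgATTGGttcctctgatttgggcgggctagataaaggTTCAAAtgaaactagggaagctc
Ccnb2 (chr9:70421548-70421667, minus strand): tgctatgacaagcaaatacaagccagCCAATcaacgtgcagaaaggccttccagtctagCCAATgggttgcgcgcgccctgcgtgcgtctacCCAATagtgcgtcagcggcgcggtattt
Bub1 (chr2:127831866-127831985, minus strand): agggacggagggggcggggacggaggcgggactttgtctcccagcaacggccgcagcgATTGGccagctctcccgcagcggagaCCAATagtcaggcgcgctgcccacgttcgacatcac
Mcm2 (chr6:88898781-88898900, minus strand): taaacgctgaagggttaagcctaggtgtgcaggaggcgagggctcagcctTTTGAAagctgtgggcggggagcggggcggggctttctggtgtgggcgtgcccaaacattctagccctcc
Cdc6 (chr11:98907681-98907800, plus strand): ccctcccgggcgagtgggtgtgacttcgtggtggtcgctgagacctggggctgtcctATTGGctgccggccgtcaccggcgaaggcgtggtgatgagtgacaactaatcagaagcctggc
Top2a, the decatenating topoisomerase, held 2 CHR strings and 3 CCAAT boxes in this stretch. Ccnb2, the cyclin B2 gene, held 3 CCAAT boxes, and Bub1, a spindle checkpoint kinase gene, held 2. No E2F string fell within these 5 stretches. The central 120 bases of 3 distal peaks are shown on the plus strand, with AP-1, FOX and TEAD strings in capitals.
Ccnd3, opened distal peak (chr17:47511403-47511522, plus strand): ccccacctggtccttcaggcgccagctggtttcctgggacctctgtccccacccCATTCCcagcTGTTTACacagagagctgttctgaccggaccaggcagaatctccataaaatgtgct
Cdkn2b, opened distal peak (chr4:89427992-89428111, plus strand): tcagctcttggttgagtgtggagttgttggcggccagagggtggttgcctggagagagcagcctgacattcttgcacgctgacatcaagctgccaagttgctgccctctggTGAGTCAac
E2f3, closed distal peak (chr13:30036707-30036826, plus strand): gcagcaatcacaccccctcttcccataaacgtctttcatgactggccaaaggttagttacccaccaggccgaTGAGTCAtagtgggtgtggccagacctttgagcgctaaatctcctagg
The first is the opened peak of highest signal in the intron of Ccnd3, the cyclin D3 gene, where a TEAD and a FOX string lay close together. The second is the opened peak of highest signal upstream of Cdkn2b, which encodes p15, and it held an AP-1 string. The third, a closed peak of E2f3 (24.5) that is not its strongest, was chosen for its AP-1 string, which 13.2% of the distal peaks of the members hold.

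Peaks of the cell cycle and replication genes were listed as opened more often than listed peaks in general. Of the 176 peaks, 115 were opened and 61 closed, a share of 65.3% opened (Wilson 95% interval 58.1 to 72.0), and over all listed peaks it was 50.8%. A promoter peak is one whose centre lies within 1 kb of the start site, and all others are distal. Promoter peaks were almost all opened, with 24 of 25, or 96.0% (80.5 to 99.3), beside 74.3% over all promoter peaks. Distal peaks were mixed, with 91 of 151 opened, or 60.3% (52.3 to 67.7), beside 47.3% over all distal peaks. The intervals cover counting error only, and peaks of 1 gene share a locus, so they are too narrow for statements about genes. No test was run, since peaks are not replicates, the files used here hold no value per library and the depth of each library is unknown.

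**Figure D1:**
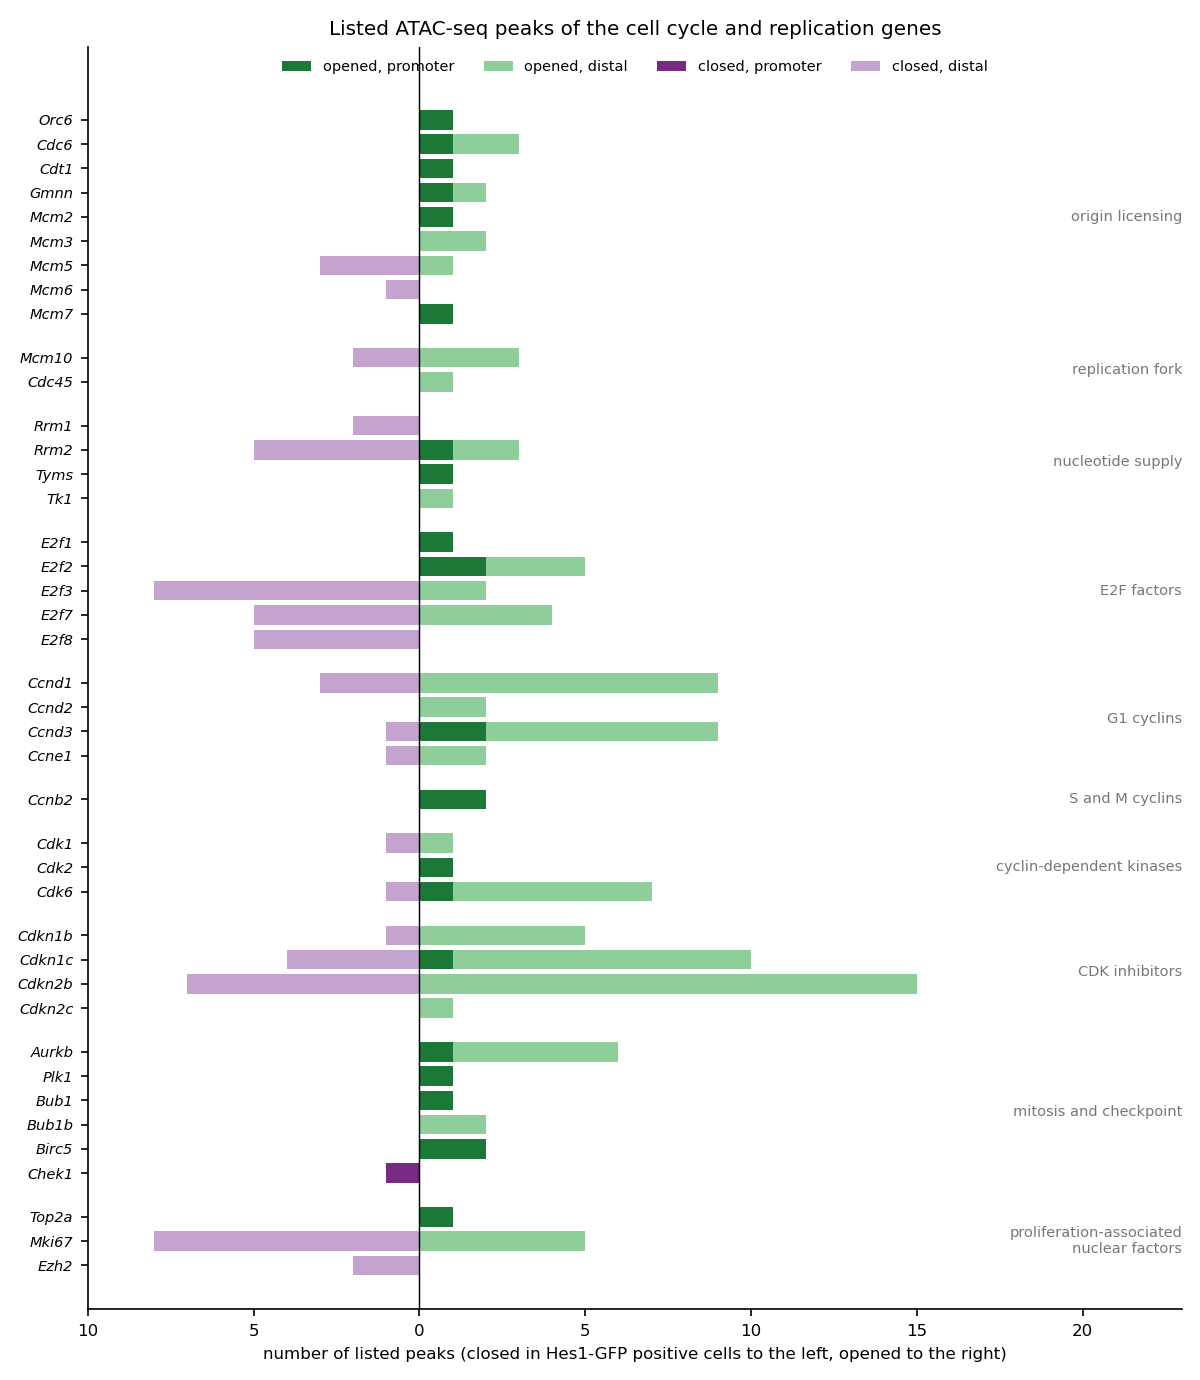
Number of listed peaks of each gene with at least 1, grouped by role, with closed peaks drawn to the left and opened peaks to the right of 0. Dark bars are promoter peaks and pale bars distal peaks. Opened promoter peaks occur in 20 genes and a closed promoter peak only in Chek1.

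Counted by gene, 20 of the 54 genes (37.0%, 25.4 to 50.4) had an opened promoter peak, beside 26.6% of 21924 protein-coding genes. A closed promoter peak was found in 1 gene, Chek1 (1.85%, 0.328 to 9.77), beside 8.43% of all protein-coding genes. The intervals of both gene shares include the share of all genes. Peaks of both kinds belonged to 14 genes (25.9%), beside 27.6% of all protein-coding genes. Opened peaks alone belonged to 22 (40.7%, 28.7 to 54.0), beside 24.5%. Closed peaks alone belonged to 5 (9.26%, 4.02 to 19.9), Mcm6, Rrm1, E2f8, Chek1 and Ezh2, beside 14.4%. No listed peak belonged to the remaining 13 (24.1%, beside 33.5%), which were Orc1, Mcm4, Pcna, Rfc3, Rfc4, Pola1, Pole, Ccne2, Ccna2, Ccnb1, Cdk4, Aurka and Foxm1. For these genes the files say only that no peak with their start site nearest passed the authors' limits, not that their chromatin was alike in NE and non-NE cells.

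The share of opened peaks varied with distance. From 1 to 10 kb away, 29 of 34 peaks were opened (85.3%, 69.9 to 93.6), beside 58.8% of all listed peaks at that distance. Among those 29 opened peaks, 5 belonged to Aurkb. From 10 to 50 kb the share was 50% (29 of 58), beside 52.3%, and from 50 to 100 kb it was 43.5% (10 of 23) in both. Beyond 100 kb, 23 of 36 peaks were opened (63.9%, 47.6 to 77.5), beside 32.5% of all. Of those 23 opened peaks, 12 belonged to a single locus, Cdkn2b, and without it 11 of 23 peaks were opened.

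**Figure D2:**
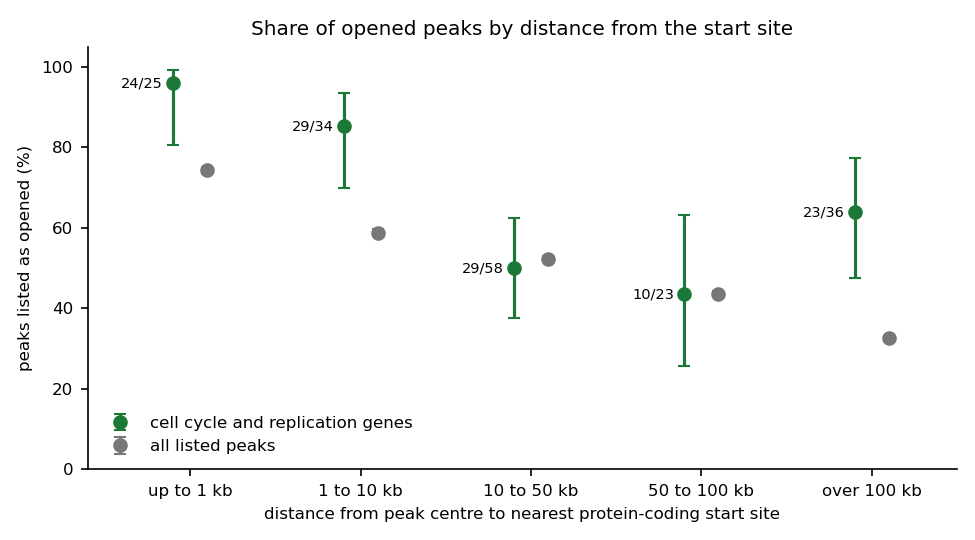
Percentage of peaks listed as opened, by distance from the peak centre to the nearest protein-coding start site, for the cell cycle and replication genes (green, with opened and total counts) and for all listed peaks (grey). Bars are Wilson 95% intervals. The green points lie above the grey ones up to 10 kb and beyond 100 kb, and beside them in between.

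The labels of the sorted cells were checked on marker genes. Of 8 NE genes, 7 had listed peaks, each with closed ones (60 closed and 11 opened in all), beside 66.5% of all protein-coding genes with any. Syp had no listed peak. All 10 promoter peaks of the NE genes were closed, while 74.3% of all promoter peaks were opened. All 5 non-NE genes, Hes1, Scgb1a1, Yap1, Rest and Notch2, had opened peaks (57 opened and 20 closed). Their 8 promoter peaks were opened, beside 74.3% of all promoter peaks. Hes1, whose GFP reporter defined the sorted groups and so is no independent check, gave 26 of the 57 opened peaks and 11 of the 20 closed. Markers of leukocytes, endothelium and fibroblasts also had listed peaks. The counts were 13 opened and 5 closed over 6 leukocyte genes, 12 and 43 over 5 endothelial genes, and 10 and 13 over 6 fibroblast genes. In that order, 3 of 6, 5 of 5 and 4 of 6 genes had any, beside 66.5% of all protein-coding genes. Their part in the values of the cell cycle genes was not tested. Chromosome 11 stood apart, with 71.1% of its 5266 peaks opened. The 5 members there (Aurkb, Birc5, Cdc6, Tk1 and Top2a) had 13 peaks, all opened. On the other chromosomes 102 of 163 member peaks were opened (62.6%, 54.9 to 69.6), beside 49.4% of all listed peaks there, and 19 of 20 promoter peaks, beside 71.9%.

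Origin licensing loads the MCM helicase onto DNA before S phase. Of its 11 genes, 9 had listed peaks, beside 66.5% of all protein-coding genes. Of these peaks, 12 of 16 were opened (75%, 50.5 to 89.8), beside 50.8% of all listed peaks, which that interval includes. In all, 6 of the 11 genes had an opened promoter peak, beside 26.6% of all protein-coding genes. Orc6, a subunit of the origin recognition complex, had a peak at chr8:85299293-85300032 with a mean normalized count of 538. That count is the authors' mean over all libraries of both groups after scaling for library size, so it gives the strength of a peak and not its difference. The start of Vps35 lies 140 bp from the centre of the same peak, on the other strand, so the peak lies at the start of both genes. Cdt1, the loading factor, and Gmnn, which encodes its inhibitor geminin, were opened together, at chr8:122567399-122568266 (398) and chr13:24761339-24762124 (529). Cdc6, which acts with Cdt1, was opened at its promoter (chr11:98907504-98908129, 327) and at 2 peaks upstream.

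Among the subunits of the MCM ring the lists were uneven. Mcm2 was opened at its promoter, chr6:88898506-88898944, with a mean normalized count of 273. Mcm7 was opened at chr5:138170907-138171471 (509), in its own gene 629 bp from a start site. Mcm3 had 2 opened distal peaks of low signal, 10 and 19.1. Mcm5 had an opened peak 6.41 kb upstream (135) and 3 closed peaks 45.5 to 48.4 kb downstream, of 12.8 to 21.9. Mcm6 had only a closed peak, in its intron, at 8.82.

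The 7 genes of the replication fork held 6 listed peaks. Only 2 of the 7, Mcm10 and Cdc45, had any, beside 66.5% of all protein-coding genes. None had a promoter peak, beside 26.6% of all genes with an opened one and 8.43% with a closed one. Mcm10, which helps to start the helicase, had 3 opened peaks 23.8 to 24.8 kb upstream and 2 closed peaks 11.1 to 15.5 kb upstream, and all 5 lay in introns of its neighbour Optn. Cdc45, a helicase cofactor, had an opened peak in its own intron (40.7). The clamp Pcna, its loader genes Rfc3 and Rfc4 and the polymerase genes Pola1 and Pole had none by the rule. An opened peak given to Pxmp2 (544) had its centre 84 bp from a start site of Pole.

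The genes that supply nucleotides were divided, with 5 of 12 peaks opened (41.7%, 19.3 to 68.0), beside 50.8% of all listed peaks, which that interval includes. Rrm2, the regulated subunit of ribonucleotide reductase, was opened at its promoter (chr12:24708004-24708507, 226), 1283 bp upstream (94.9) and 2.11 kb downstream (54.9). Its 5 closed peaks all lay further downstream, 16.3 to 43.8 kb away, and the strongest, at chr12:24724310-24724676, reached 114. Opened and closed peaks thus occupied separate stretches. Tyms, thymidylate synthase, was opened at its promoter (chr5:30073269-30073823, 127). Tk1, thymidine kinase, had an opened peak 2.27 kb upstream (38.7), and Rrm1, the other reductase subunit, had 2 closed peaks in introns of Stim1, 49.0 and 64.8 kb upstream of its start (17.9 and 9.88).

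The E2F family split by gene. E2f1 and E2f2 had opened peaks only, E2f8 had closed peaks only, and E2f3 and E2f7 had both kinds. E2f1 carried the strongest promoter peak of all members, at chr2:154569314-154570288, with a mean normalized count of 681, higher than 95.5% of all opened promoter peaks. E2f2 was opened on both sides of its start (chr4:136171959-136172295, 77.6, and chr4:136172512-136172891, 179) and at 3 peaks in its introns (21.0 to 103). E2f3 had 8 closed peaks, 5 of them between 26.3 and 65.3 kb upstream, and 2 opened peaks in its introns. Its strongest closed peak was at chr13:30051178-30051500 (46.5) and its strongest opened peak at chr13:29940899-29941280 (41.2).

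E2f8 and E2f7 encode the repressors of the family. All 5 peaks of E2f8 were closed, and the strongest, in its own intron at chr7:48877999-48878327, had a count of 131, higher than 95% of closed distal peaks. Another 2 lay in introns of Nav2, the neuron navigator 2 gene. E2f7 had 5 closed and 4 opened peaks, and 4 of the closed ones lay beyond 100 kb, where 32.5% of all listed peaks were opened. The strongest closed peak, at chr10:110455649-110456318 (215), stood 289 kb upstream in an intron of Nav3, the neuron navigator 3 gene, and 3 of the 5 closed peaks lay in Nav3. The strongest opened peak was at chr10:110716859-110717269 (50.1), and the nearest opened one was 1.17 kb from the start (25). Over the family, 12 of 30 peaks were opened (40%, 24.6 to 57.7), below the 50.8% of all listed peaks but with an interval that includes it.

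The G1 cyclin genes were mostly opened, with 22 of 27 peaks (81.5%, 63.3 to 91.8), beside 50.8% of all listed peaks. Ccnd1, the cyclin D1 gene, had 9 opened peaks, all upstream, 1.75 to 117 kb from the start, and 3 closed ones. The strongest opened was at chr7:144943330-144943599 (69.7). The strongest closed, at chr7:145059481-145060247 (117), lay at the far end of the same stretch. No listed peak covered the Ccnd1 promoter. Ccnd3 had 9 opened peaks and 1 closed, every one inside the gene. Its promoter peak at chr17:47593148-47593813 (319) belonged to an inner start site, and a weaker one at chr17:47595643-47595753 (23) lay 370 bp before another. The strongest, at chr17:47511037-47511887 (442), was a distal peak in the intron 6.31 kb from the outer start, higher than 99.4% of opened distal peaks. The closed one was at chr17:47531394-47531626 (20.6). Ccnd2 had 2 opened peaks, 3.13 kb downstream (45.0) and 94.9 kb upstream (110), and Ccne1, cyclin E1, had 2 opened (14.7 and 19.1) and 1 closed (60.4).

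Of the cyclins used in S phase and mitosis, only Ccnb2 had listed peaks. They were opened, at chr9:70421319-70421730 (146) and, just upstream, chr9:70421789-70421975 (19.2). Among the kinases, Cdk2, the partner of cyclins E and A, was opened at its promoter (chr10:128704481-128705265, 408). The centre of that peak lies inside both Cdk2 and Pmel. Cdk6, a partner of the D cyclins, was opened at chr5:3344417-3344639 (92.8) and at 6 distal peaks from 191 kb upstream to 94.8 kb downstream, and closed at a single intronic peak, chr5:3405103-3405512 (25.1). Cdk1, the mitotic kinase, had 1 opened peak 45.7 kb away (38.4) and 1 closed peak in its intron (26.0).

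The CDK inhibitors held the largest number of peaks of any group, 43, of which 31 were opened (72.1%, 57.3 to 83.3), beside 50.8% of all listed peaks, and 30 of those were distal. Cdkn2b, which encodes p15, had 15 opened and 7 closed peaks, more than any other member, and all lay upstream, 38.0 to 177 kb from the start. The opened peaks included a run in chr4:89422067-89447408, within the noncoding gene Gm12610, where 10 peaks were opened and none closed, with the strongest at chr4:89427793-89428309 (356). Of the closed peaks, 6 lay between that run and the gene, 3 of them in introns of the noncoding gene Gm12609, and 3 opened peaks lay in the same stretch. The strongest closed peak lay on the far side of the run at chr4:89485899-89486431 (271), higher than 99.1% of closed distal peaks.

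Cdkn1c, which encodes p57 and is an imprinted gene, was opened at its promoter (chr7:143460848-143461488, 246) and 3.98 kb upstream (87.5). Its other 12 peaks lay downstream inside the Kcnq1 gene. The 4 nearest, 44.1 to 70.5 kb away, were closed, the strongest at chr7:143390390-143390603 (29.7), and the 8 beyond, 92.5 to 171 kb away, were opened. Among the opened ones, that at chr7:143289499-143289795 (53.6) lay in an exon of Kcnq1ot1, the noncoding RNA of that imprinted domain. Cdkn1b, which encodes p27, had 5 opened peaks and 1 closed. The strongest opened, at chr6:134928256-134928909 (408), lay 8.07 kb downstream of the start and exceeded 99.2% of opened distal peaks, while the closed one, at chr6:134938687-134938829, reached 9.39 in an intron of Lockd. Cdkn2c, the p18 gene, had an opened peak of low signal (12.5).

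**Figure D3:**
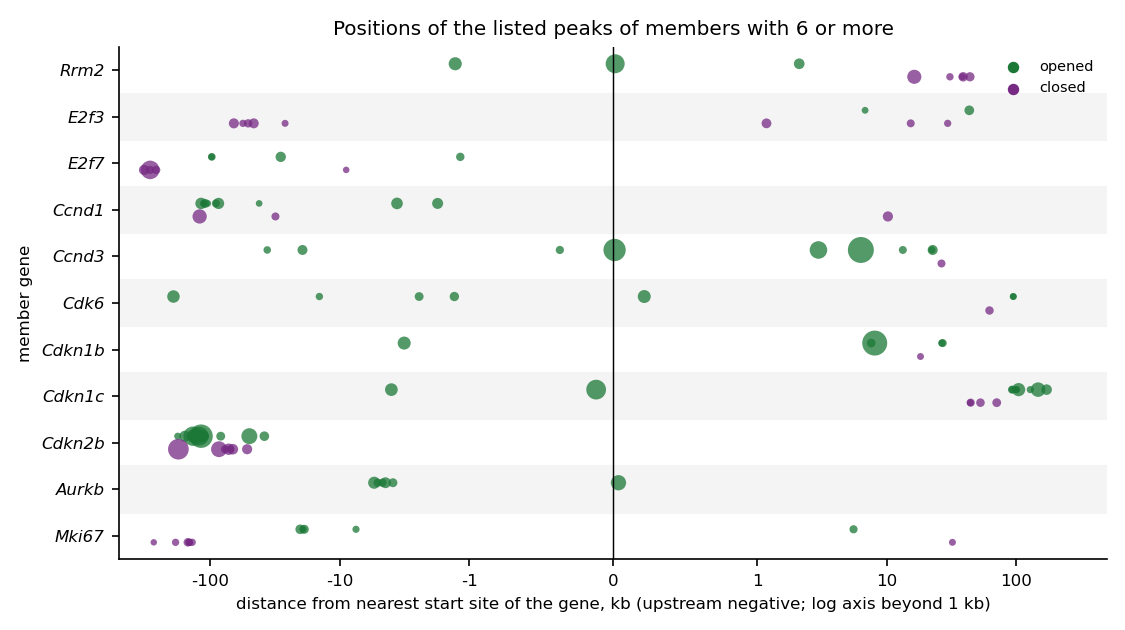
Distance of each listed peak from the nearest start site of its gene, in kilobases on an axis that is logarithmic beyond 1 kb, for the 11 genes with 6 or more listed peaks. Green dots are opened and purple dots closed, and dot area grows with the mean normalized count. Opened and closed peaks of Rrm2 and Mki67 occupy separate ranges of distance, and the closed peaks of Cdkn1c lie between its nearer and its farther opened peaks.

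Genes of mitosis and its checkpoints were opened at 12 of 13 peaks (92.3%, 66.7 to 98.6), beside 50.8% of all listed peaks. Aurkb and Birc5, which encode partners in the chromosomal passenger complex, both lie on chromosome 11, where 71.1% of all listed peaks were opened, and they hold 6 and 2 of the 13 peaks. Aurkb was opened at its promoter (chr11:69045504-69045874, 138) and at 5 peaks 3.87 to 5.4 kb upstream. Those 5 peaks, among the 12 opened ones of the group, lay between annotated genes in chr11:69040061-69041852. The rule gave them to Aurkb by distance and weighs protein-coding start sites only. Birc5, survivin, was opened at chr11:117849007-117849526 (218) and chr11:117848812-117848974 (19.6). Plk1, the polo-like kinase, was opened at chr7:122158968-122159675 (142) and Bub1 at chr2:127831773-127832067 (145). Bub1b had 2 opened distal peaks, 114 and 5.57. The exception was Chek1, the kinase that halts the cycle when forks stall. Its closed peak, chr9:36725381-36725656 (50.4), lay in an intron 345 bp from a start site, in sequence of 39.0% GC, while the central 200 bp of the opened promoter peaks had a median of 64.8%.

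The last group joins nuclear proteins linked to proliferation. Of its 16 peaks, 6 were opened (37.5%, 18.5 to 61.4), beside 50.8% of all listed peaks, which that interval includes. Top2a was opened at its promoter (chr11:99023895-99024545, 259). Mki67, the gene of the Ki-67 antigen, had no promoter peak. Its 5 opened peaks lay within 20.1 kb of the start, the strongest at chr7:135736391-135736601 (40.2). Of its 8 closed peaks, 7 lay 137 to 271 kb upstream and the other 32.1 kb downstream, and the strongest, at chr7:135863661-135864099, reached 25.8. Ezh2, the histone methyltransferase gene, had 2 closed peaks, in its intron (43.1) and 33.1 kb upstream (49.3).

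Some members have a start site within 1 kb of the centre of an opened peak that was given to a neighbour by the rule. These were Mcm7 (another peak, given to Ap4m1, 267), Pole (given to Pxmp2, 544), Tk1 (given to Afmid, 65.9) and Aurka (given to Cstf1, 418), each within 273 bp of the member's start. Counting such peaks for the member as well raised the genes with an opened promoter peak from 20 to 23, and left the closed count at 1, beside 28.6% and 8.65% of all protein-coding genes counted in the same way. This way of counting was chosen after the values were seen. A shared promoter cannot be told apart from either gene's own.

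Opened promoter peaks of the members ranged widely in signal. Their median mean normalized count was 222 over 24 peaks, with a range of 19.2 to 681, beside a median of 169 over all 7694 opened promoter peaks, and 10 of the 24 lay below that median. They had a median width of 538 bp, beside 485 bp, and a ratio of observed to expected CpG of 0.973, beside 0.764, and a GC content of 64.8%, beside 65.0%. Distal peaks of the members had a median mean normalized count of 36.7 beside 32.5 when opened and 22.3 beside 25 when closed. Of the opened distal peaks, 48.4% lay in introns and 46.2% between genes, beside 57.4% and 37.2% over all.

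**Figure D4:**
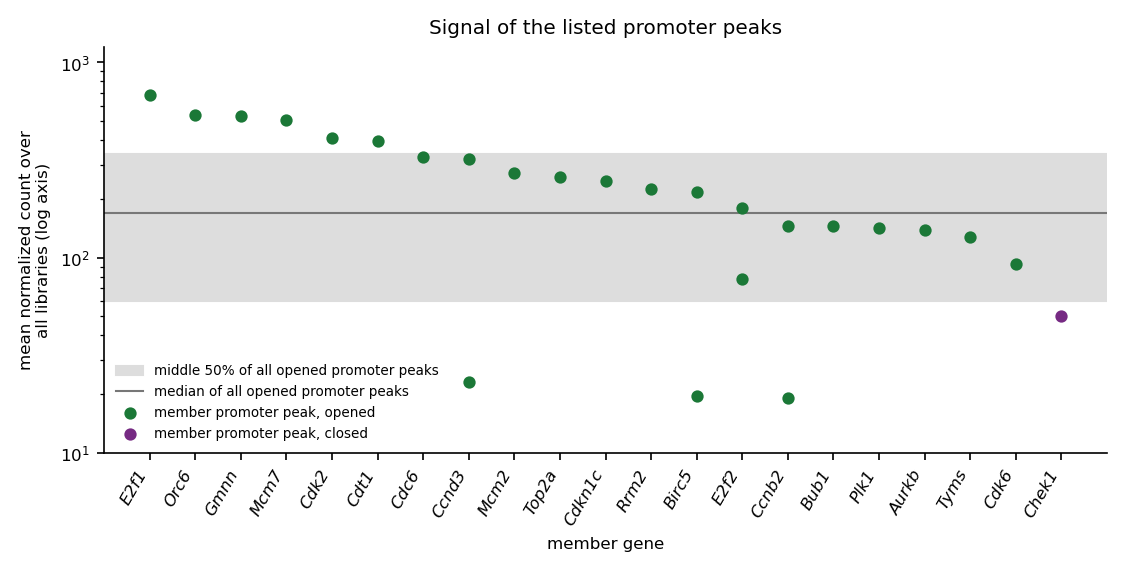
Mean normalized count of each listed promoter peak of the members on a logarithmic axis, with genes ordered by their strongest peak. The grey band holds the middle 50% of all opened promoter peaks and the line is their median of 169. E2f1, Orc6, Gmnn, Mcm7, Cdk2 and Cdt1 lie above the band. The closed peak of Chek1 and the weaker opened peaks of Birc5, Ccnb2 and Ccnd3 lie below it.

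Strings bound by cell cycle factors had higher shares in these promoters than in all opened promoters. Exact matches were sought on both strands, for E2F as TTTCCCGC, TTTGGCGC, TTTCGCGC or TTTGCCGC, for the CHR as TTTGAA or TTCGAA, for NF-Y as CCAAT and for the GC box as GGGCGG. Matches may overlap. In the central 200 bp of opened promoter peaks, an E2F string was found in 3 of 24 (12.5%, 4.34 to 31.0), in E2f1, Mcm2 and Cdc6, beside 2.37% of all opened promoter peaks. The CHR was found in 6 of 24 (25%, 12.0 to 44.9), beside 6.82%. CCAAT was found in 12 of 24 (50%, 31.4 to 68.6), beside 22.1%, and the GC box in 15 of 24 (62.5%, 42.7 to 78.8), beside 54.5%. The intervals for E2F, the CHR and CCAAT lie above the share over all, and the interval for the GC box includes it. Over the whole peak the E2F share was 33.3% (8 of 24), beside 6.43%. The peaks that held the CHR were those of Aurkb, Birc5, Bub1, Ccnb2, Gmnn and Top2a, and over whole peaks also those of Mcm2 and Plk1.

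The same strings were counted in promoters whether or not a peak was listed there. RefSeq promoter windows, from 250 bases before the start to 50 after it (GRCm38), were at hand for 44 of the 54 genes, and 15 of these held an E2F string (34.1%, 21.9 to 48.9), beside 3.32% of 16522 protein-coding genes. The share was 29.4% (5 of 17, 13.3 to 53.1) in genes with an opened promoter peak and 37.0% (10 of 27, 21.5 to 55.8) in genes without. The split follows the rule of the nearest start site. Tk1 and Aurka therefore count as without, although an opened peak given to a neighbour lay 160 and 273 bp from their starts. Orc1, Pola1 and Rfc3, which had no listed peak, held E2F strings 27, 138 and 10 bases before the start. The CHR was found in 41.2% of the first group (7 of 17, 21.6 to 64.0) and 33.3% of the second (9 of 27, 18.6 to 52.2), beside 19.4% of all genes. CCAAT was found in 64.7% (41.3 to 82.7) and 77.8% (59.2 to 89.4), beside 42.1%, and the GC box in 88.2% (65.7 to 96.7) and 74.1% (55.3 to 86.8), beside 51.0%. Over all genes with an opened promoter peak the shares were 4.95% for E2F, 15.6% for the CHR, 42.4% for CCAAT and 71.7% for the GC box, and the last 2 lie inside the intervals of the members with such a peak. The difference between the 2 groups of genes was not tested, and their intervals overlap for every string. A match is only a match of letters, and the absence of a string says nothing on whether the factor was bound.

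**Figure D5:**
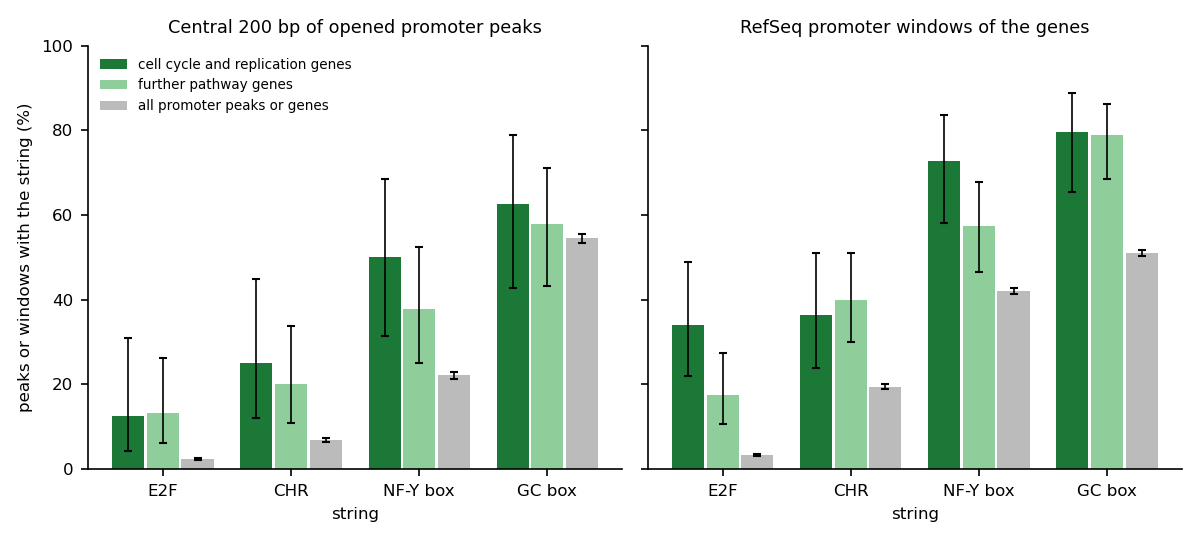
Percentage of opened promoter peaks (left, central 200 bp) and of RefSeq promoter windows (right) that hold each string, for the cell cycle and replication genes, the further pathway genes and all promoter peaks or protein-coding genes. The NF-Y box is the CCAAT string, and bars are Wilson 95% intervals. E2F strings stand at 12.5% on the left and 34.1% on the right for the members, beside 2.37% and 3.32% for all.

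Strings of distal factors were counted in the distal peaks. AP-1 (TGANTCA) was found in 20 of the 151 distal peaks of the members (13.2%, 8.74 to 19.6), beside 20.2% of all distal peaks, and over whole peaks in 16.6% (11.5 to 23.3), beside 24.3%. Both intervals lie below the share over all. The share of AP-1 differs between the lists, and the members have more opened distal peaks than the rest (60.3% beside 47.3%). By list, AP-1 was found in 7.69% of their opened peaks (3.78 to 15), beside 12.1% of all opened distal peaks, and in 21.7% of their closed peaks (13.1 to 33.6), beside 27.5%. TEAD (CATTCC) was found in 14.3% of opened peaks, beside 20.3%, and in 15% of closed peaks, beside 8.91%. FOX (TNTTTAC) was found in 14.3% of opened peaks, beside 15.7%. The interval of each of these 5 shares by list includes the share over all distal peaks of its list. E2F strings were rare in distal peaks of the members and of all genes. They were found in 1 of 91 opened peaks (1.1%), beside 0.546%, and in 0 of 60 closed peaks, beside 0.385%.

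A further 102 genes of the same pathways were counted in the same way. Of their 325 peaks, 199 were opened (61.2%, 55.8 to 66.4), beside 50.8% of all listed peaks. Among promoter peaks 45 of 48 were opened (93.8%, 83.2 to 97.9), beside 74.3%, and among distal peaks 154 of 277 (55.6%, 49.7 to 61.3), beside 47.3%. An opened promoter peak was found in 38 genes (37.3%, 28.5 to 46.9) and a closed one in 3, beside 26.6% and 8.43% of all genes. The genes with an opened promoter included 13 of 32 of mitosis and checkpoint, 10 of 23 of the replication fork, 6 of 16 of the cyclins, CDKs and their regulators, 4 of 12 of E2F and the DREAM complex, 3 of 14 of origin licensing and firing and 2 of 5 of nucleotide supply. The strongest were Gins2, a subunit of the replicative helicase (949), and Rrm2b, the p53-induced reductase subunit (931), both higher than any promoter peak of the 54 members and named after their values were seen. The 3 closed promoters were those of Ccna1, the germline cyclin A1 (chr3:55054979-55055727, 301), Tfdp2, a dimerization partner of E2F (chr9:96259832-96260014, 26.2), and Wdhd1, a replisome protein (chr14:47276198-47276355, 22.8). The 5 genes with the most peaks were Cdk14 (19 opened and 12 closed), Prim2 (9 and 13), Cdc7 (9 and 8), Nuf2 (6 and 10) and Ect2 (5 and 8). Nek2, with 10 and 3, had as many as Ect2, which comes first by symbol.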

How the data were processed

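Tumor cells were sorted into 4 Hes1-GFP positive and 4 Hes1-GFP negative libraries from 3 mice, and each library was run on 2 lanes. Per the labels and the study's methods, the authors trimmed reads of adaptor and transposase sequence, aligned them to mm10 with Bowtie2 2.3.4.1, removed duplicates, called narrow peaks with MACS2 with reads shifted around the Tn5 insertion, pooled the peak calls into a union set and counted the reads in it. The authors compared the groups with DESeq2 1.28.1, and peaks past their limits form the 2 lists. How lanes and the technical replicate were combined is not given in the sources used here. As signal, the authors give each peak its mean count over all libraries after division by size factors, with no value per library, so depth is unknown. Another 5 columns hold the authors' fold changes, their errors, test statistics and p-values, and were not used.

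Positions are 1-based on mm10, and all peaks lie within the chromosomes of GRCm38.p6. Peak centres were assigned to the nearest protein-coding start site of the basic GENCODE vM21 annotation, with ties going to the first symbol. All 54 members and 102 further pathway genes were found, 1 of the latter through an older symbol. Strings were matched exactly in the central 200 bp with Python 3.11.15, pandas 2.3.3 and pysam 0.24.0, and Wilson intervals at 95% came from scipy 1.17.1. One planned string is not reported here. The assignment and the string search were tested on simulated data. No test was run across peaks, since they are not replicates. Members, lists and alternatives were chosen with earlier results of these data known. The text names every member with a promoter peak, gives members with 6 or more peaks with their strongest opened and closed peak, and of the further genes those with a closed promoter peak and the 5 with the most peaks. Peaks that did not pass the authors' limits were not analysed here.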

Additional observations from a re-analysis of the deposited data

How the results depend on the processing

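No paired analysis was possible because the files used here hold no value per library, and no result comes from a test. Of 57 recomputed values, 45 stayed within the interval of the reported value or, for counts, within 1.5 times of it, and all 29 shares of opened peaks among all, promoter or distal member peaks, the reported ones included, exceeded the matching share over all listed peaks. The interval included the latter in 2 cases, distal peaks with start sites within 100 kb (59.1%, 50 to 67.7, beside 52.1%) and promoter peaks at a mean normalized count of at least 50 (95.5%, 78.2 to 99.2, beside 84.1%). The share of opened peaks was 82.5% at a mean normalized count of at least 50 (64.4% over all peaks), 80.0% with start sites within 20 kb (62.5%) and 81.8% with start sites of all gene types (50.8%), which left 77 peaks because the rest went to noncoding genes. The share for distal peaks was 75.6%, 72.7% and 75.5% in those settings, beside 57.5%, 57.5% and 47.1%. With a promoter distance of 3 kb the median mean normalized count of member promoter peaks of both lists was 135 in place of 218, beside 73.8 in place of 111 over all promoter peaks, the closed promoters became 3 among members and 6 among the further genes, and with 500 bp or a count of at least 50 the latter became 1. Over whole peaks, 32.0% of member promoter peaks of both lists held an E2F string, beside 12.0% in the central 200 bp. Without chromosome 11 the promoter and distal shares were 95% and 58.0%, beside 71.9% and 46.3%. Depth per library is unknown, so it cannot be said which unlisted genes were out of reach.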
